A study of Mus musculus with 7 samples.

Results

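The tumour necrosis factor (TNF) receptor superfamily was examined in ILC2s, the group 2 innate lymphoid cells, which lack antigen receptors, depend on GATA3 and carry ST2, the receptor of interleukin 33. The members were 10 named receptor genes, found by symbol in a table of 55335 genes, and each matched 1 row: Tnfrsf1a, Tnfrsf1b, Tnfrsf4, Tnfrsf9, Tnfrsf18, Tnfrsf25, Tnfrsf14, Cd27, Fas and Cd40. RNA was sequenced from 3 naive heart libraries and 4 heart allograft libraries of mice, with BALB/c hearts transplanted into C57BL/6 (B6) recipients, a model of acute rejection, and harvested at day 7. In both groups the cells were sorted as CD45+, lineage-negative and ST2+, and each library pooled the ILC2s of 4 to 7 hearts. The labels gave no genotype, age or sex, and no strain for the naive hearts.

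These receptors share extracellular cysteine-rich domains and bind trimeric ligands of the TNF family. Tnfrsf4 (OX40), Tnfrsf9 (4-1BB), Tnfrsf18 (GITR), Tnfrsf14 (HVEM), Cd27, Cd40 and Tnfrsf1b (TNFR2) recruit TRAF adaptors and lead to NF-kappaB activation. Tnfrsf1a (TNFR1), Fas and Tnfrsf25 (DR3) carry a death domain and can signal cell death or survival. In ILC2s, DR3 and GITR are known as costimulatory receptors, for the ligands TL1A and GITRL.

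Total counts ranged from 29107326 to 53044907 per library. Levels are given as CPM, counts scaled to the library total, so that 3 counts, the most that a count of 0 allows, equalled 0.0566 to 0.103 CPM. Naive replicate 2 stood apart and went against its label. The summed level of 11 ILC2 markers was 1147 CPM in that library, against 10715 and 14664 CPM in naive replicates 1 and 3 and 11153 to 11795 CPM in the allografts. Gata3 was at 34.8 CPM there and at 654 CPM or more in the other 6 libraries. A list of 8 kidney epithelium markers summed to 10522 CPM in naive replicate 2 and to 70.8 to 288 CPM elsewhere. Mitochondrial transcripts made up 26.5% of its counts (95% Wilson interval 26.48% to 26.5%), against at most 3.11% in any other library. Results are therefore given with and without naive replicate 2. In sorted pools, fewer cells that carry a transcript and less of it per cell cannot be told apart.

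**Figure D1:**
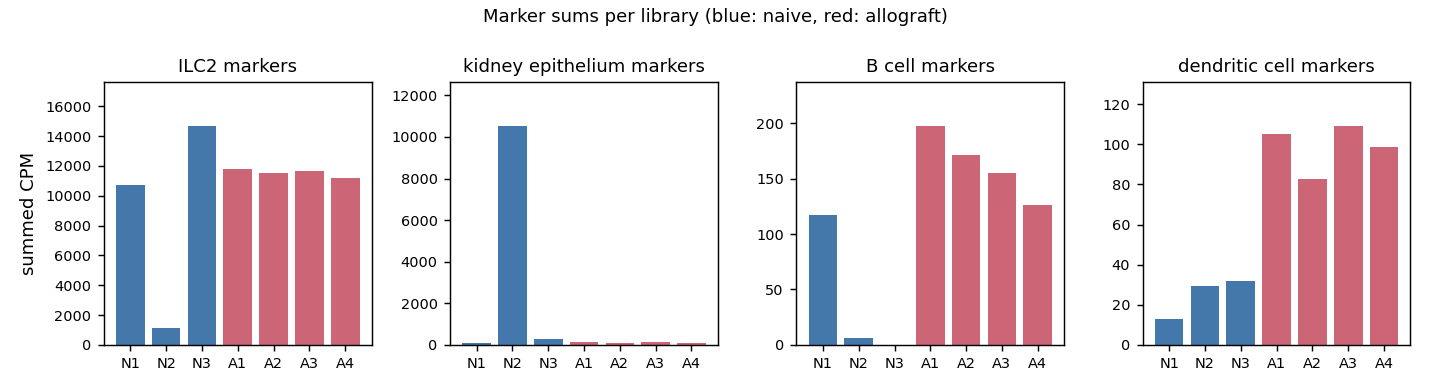
Summed CPM of 4 marker lists (vertical axes, linear, each with its own scale) in the 3 naive (N1 to N3, blue) and 4 allograft (A1 to A4, red) libraries. Naive replicate 2 had 1147 CPM of ILC2 markers and 10522 CPM of kidney markers, and the dendritic cell sum was 82.6 CPM or more in each allograft and 31.8 CPM or less in each naive library.

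Of the 10 members, 6 lie on mouse chromosome 4, 2 on chromosome 6, 1 on chromosome 2 and 1 on chromosome 19. Tnfrsf4 (chr4:156013843-156016612, mm10, plus strand) and Tnfrsf18 (chr4:156026164-156028895, plus strand) are neighbours, with 9551 bases between them. Tnfrsf9 lies at chr4:150914562-150946102 on the plus strand. Promoter windows from 250 bases before to 50 bases after each annotated start, from RefSeq on GRCm38.p6, were found for 9 of the 10 members, the exception being Cd40. The windows of Tnfrsf4, of its neighbour Tnfrsf18 and of the second annotated start of Tnfrsf9 are shown. Tnfrsf4 and Tnfrsf9 had the widest gap between the groups, while Tnfrsf18 overlapped between them. The first window of Tnfrsf9, without motif matches, is not printed, and which of its starts these cells use was not measured. Capitals mark matches, on either strand, to the NF-kappaB consensus, to the AP-1 motif TGANTCA and to GATAA, a core of GATA factor sites.
Tnfrsf4, chr4:156013445-156013744, plus strand: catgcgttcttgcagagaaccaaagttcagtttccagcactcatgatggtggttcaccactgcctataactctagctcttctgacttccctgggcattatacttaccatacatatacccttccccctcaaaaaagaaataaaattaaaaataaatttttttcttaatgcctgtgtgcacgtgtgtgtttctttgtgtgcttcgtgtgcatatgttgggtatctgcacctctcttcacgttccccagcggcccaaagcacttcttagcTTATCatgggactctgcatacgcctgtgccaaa
Tnfrsf18, chr4:156026072-156026371, plus strand: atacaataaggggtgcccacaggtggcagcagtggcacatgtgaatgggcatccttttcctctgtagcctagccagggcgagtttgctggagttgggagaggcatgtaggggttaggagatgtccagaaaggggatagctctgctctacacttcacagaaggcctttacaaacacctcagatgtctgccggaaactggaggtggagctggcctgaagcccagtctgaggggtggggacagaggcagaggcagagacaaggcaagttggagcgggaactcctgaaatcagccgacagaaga
Tnfrsf9 second start, chr4:150927749-150928048, plus strand: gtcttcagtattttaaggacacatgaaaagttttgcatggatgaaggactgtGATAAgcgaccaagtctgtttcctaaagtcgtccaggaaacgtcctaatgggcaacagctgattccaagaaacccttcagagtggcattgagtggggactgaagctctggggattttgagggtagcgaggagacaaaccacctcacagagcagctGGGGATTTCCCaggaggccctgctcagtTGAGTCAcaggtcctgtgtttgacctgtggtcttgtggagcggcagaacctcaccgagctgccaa

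The first annotated start of Tnfrsf9, at chr4:150919905-150920204, held none of the 3 motifs. The window of its second start held an NF-kappaB match that begins 43 bases before the start and overlaps a further match 42 bases before it. It also held an AP-1 match 15 bases and a GATAA match 198 bases before the start. In the Tnfrsf4 window a GATAA match, on the minus strand, began 17 bases after the RefSeq start. That window ends before the gene start printed above, which comes from GENCODE, so the match lies upstream of the GENCODE start. The Tnfrsf18 window held none of the 3 motifs. Over the 32851 promoter windows of the same length in the table, 8.46% held the NF-kappaB consensus, 7.81% the AP-1 motif and 25.4% GATAA. The 9 members with a window had 11 windows, as Tnfrsf9 and Tnfrsf25 had 2 each. Counted per member, unlike the shares per window above, the NF-kappaB consensus occurred in 2 (Tnfrsf9 and Tnfrsf25), each time in the second window. The AP-1 motif occurred in 2 members (Tnfrsf9 and Fas) and GATAA in 2 (Tnfrsf4 and Tnfrsf9). These matches describe the letters of the windows, and no binding was measured.

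The comparison asked how transcripts of graft-infiltrating ILC2s differ from those of ILC2s in the naive heart. No member passed an adjusted p of 0.05 with all 7 libraries (edgeR's quasi-likelihood test), where 6 of 17015 genes (0.0353%) did, the share called higher being 0.0294%. Tnfrsf4 and Tnfrsf9 showed the clearest separation, with every allograft library at least 3.74-fold above every naive library. Tnfrsf18, the most abundant member, and Tnfrsf25, Cd27 and Fas overlapped between the groups. Every allograft exceeded every naive library for 4 of the 10 members, Tnfrsf4, Tnfrsf9, Tnfrsf14 and Tnfrsf1b, and the same was so for 12.5% of all genes tested. No member was lower in every allograft than in every naive library, as 2.15% of the genes tested were. At an unadjusted p under 0.05 there was 1 member, Tnfrsf9, against 10.3% of all genes.

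**Figure D2:**
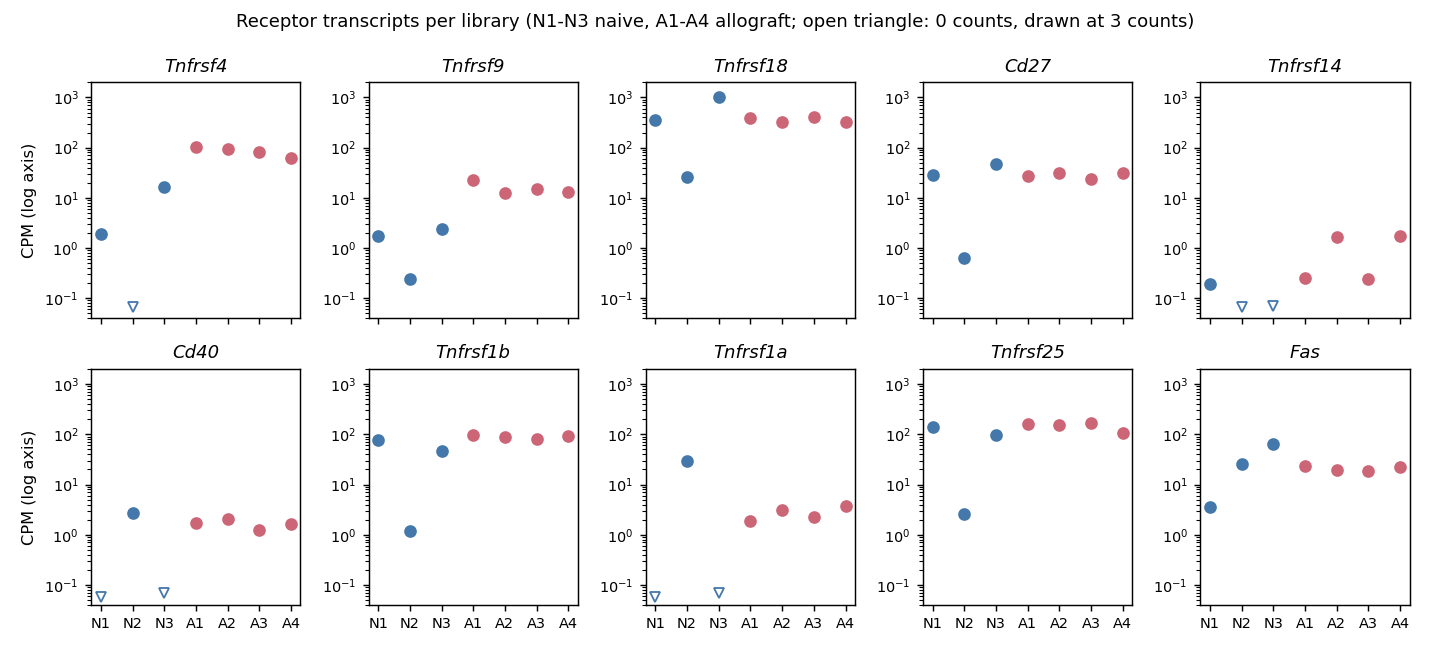
CPM (log axis) of the 10 receptors in each naive (N1 to N3, blue) and allograft (A1 to A4, red) library, with open triangles for 0 counts drawn at the level of 3 counts. For Tnfrsf4 the allografts lie between 60.9 and 102 CPM above a highest naive value of 16.3 CPM, and for Tnfrsf18 the allografts lie within the naive range.

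Among the TRAF-binding costimulatory receptors, Tnfrsf4 (ENSMUSG00000029075) encodes OX40, an activation-induced receptor best known on T cells. It was at 1.87, 0 and 16.3 CPM in naive replicates 1 to 3 and at 102, 95.3, 81.4 and 60.9 CPM in allograft replicates 1 to 4. The groups did not overlap. In proportion to the group mean the naive libraries differed among themselves more than the allografts did, although the spread in CPM was larger in the allografts. The mean was 84.8 ± 18.1 CPM (SD, n = 4) in allografts and 6.05 ± 8.91 CPM (SD, n = 3) in naive libraries, 14.02-fold, or 9.35-fold without naive replicate 2. The log2 fold change was 3.75 (SE 1.63, adjusted p = 0.498), and 3.16 (SE 0.91, adjusted p = 0.124) without naive replicate 2. Naive replicate 3 held most of the naive counts, and without it the log2 fold change was 6.48.

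Tnfrsf9 (ENSMUSG00000028965) encodes 4-1BB, a receptor that is likewise induced on activated lymphocytes. Its levels were 1.75, 0.242 and 2.43 CPM in the naive libraries and 22.8, 12.7, 14.9 and 13.2 CPM in the allografts. The lowest allograft was 5.23-fold above the highest naive library, the widest such gap among the members. Its log2 fold change was 3.36 (SE 0.90, adjusted p = 0.230), and 2.87 (SE 0.62, adjusted p = 0.0635) without naive replicate 2. With DESeq2's Wald test the adjusted p of Tnfrsf9 was 8.95e-05, where 4.17% of genes were called higher, and over all 16 alternatives it ran from 8.95e-05 to 1, below 0.05 in 1 of them. The gene lies within the span of Camta1 on the opposite strand, but the exons of the 2 genes share 0 bases.

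Tnfrsf18 (ENSMUSG00000041954) encodes GITR, which costimulates ILC2s and T cells. It was at 352, 25.8 and 1019.5 CPM in the naive libraries and at 396, 324, 398 and 322 CPM in the allografts, with 1 naive library far below the allografts and 1 far above. The fitted log2 difference was -0.43 (SE 0.86, adjusted p = 0.938). Without naive replicate 2 it was -0.99 (SE 0.41, adjusted p = 0.247), and without naive replicate 3 it was 0.90, so that its sign rested on single libraries. Of its 1524 exon bases, 414 overlap the antisense gene Gm16008, and the use of strand in counting is not given in the sources used here. Gm16008 itself was at 87.8 CPM in naive replicate 3, the library with the highest Tnfrsf18, and at 2.15 to 16.9 CPM in the others.

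The neighbouring genes Tnfrsf4 and Tnfrsf18 could be set against each other within a library, on a scale per gene length (FPKM, fragments scaled to gene length and library size). The Tnfrsf4 level was 0.592%, 0% and 1.78% of the Tnfrsf18 level in naive replicates 1 to 3. It was 28.7%, 33.0%, 22.9% and 21.1% in allograft replicates 1 to 4. The groups did not overlap in this ratio, which does not depend on the scaling of a library, but it was chosen after the values were seen and was not tested. The Tnfrsf9 level was 0.134% to 0.513% of that of Tnfrsf18 in naive libraries and 2.08% to 3.21% in allografts.

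Cd27 (ENSMUSG00000030336), a receptor of naive and memory lymphocytes, was at 27.9, 0.637 and 47.3 CPM in the naive libraries. In the allografts it was at 27.01, 30.5, 23.5 and 31.5 CPM, between naive replicates 2 and 3. The fitted log2 difference was 0.11 (SE 0.98, adjusted p = 0.992), and -0.47 (SE 0.36, adjusted p = 0.510) without naive replicate 2. Tnfrsf14 (ENSMUSG00000042333), which encodes HVEM, the receptor of LIGHT and partner of BTLA and CD160, was near the limit of detection. It had 10, 0 and 0 counts in the naive libraries and 11, 54, 10 and 51 in the allografts, 0.245 to 1.75 CPM. The groups did not overlap in CPM, but 2 of the allografts had 10 and 11 counts and lay 1.298-fold or little more above naive replicate 1. The log2 fold change of Tnfrsf14 was 3.86 (SE 1.88, adjusted p = 0.572).

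Cd40 (ENSMUSG00000017652), the receptor through which T cells help B cells and dendritic cells, had 0, 121 and 0 counts in the naive libraries and 74, 68, 50 and 47 in the allografts. In CPM the allografts stood at 1.22 to 2.10 and naive replicate 2 at 2.66, so that this library alone was above them. On the log2 scale the fitted difference was 0.32 (SE 2.09, adjusted p = 0.988). Without naive replicate 2, both remaining naive libraries had 0 counts and Cd40 was at least 26.4-fold higher in allografts, against a floor of 3 counts per library (adjusted p = 0.0450, and 0.0450 to 1 over its 15 alternatives). B cells and dendritic cells carry CD40, and their marker sums were higher in each allograft than in every naive library. Among the naive libraries neither sum was highest in naive replicate 2, the only one with Cd40 counts. The B cell list summed to 126 to 197 CPM in the allografts, with 7 or 8 of its 8 genes detected in each, and to 117, 6.40 and 0 CPM in naive replicates 1 to 3. Of the 117 CPM, Cd79b alone gave 117.1, and Ms4a1 and Pax5 were at 0 in every naive library. All 7 dendritic cell genes were detected in each allograft, with sums of 82.6 to 109 CPM against 12.7 to 31.8 CPM in the naive libraries. In naive replicates 1 to 3, 1, 5 and 2 of the 7 were detected. Xcr1, Siglech and Cd209a overlapped between the groups, and the others were higher in every allograft. Xcr1 was at 30.9 CPM in naive replicate 3 and Cd209a at 18.2 CPM in naive replicate 2, against 13.5 to 25.4 and 3.40 to 10.9 CPM in allografts. The part of these cells in the Cd40 values was not tested.

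For Tnfrsf4 and Tnfrsf9, the T cell list is the closest comparison. It summed to 1065 to 1263 CPM in allografts, with 7 to 10 of its 10 genes detected, and to 348, 30.4 and 1085 CPM in naive replicates 1 to 3. Of the genes of the T cell receptor complex, Cd3g, Trac and Trbc2 were higher in every allograft than in every naive library, and Cd3d, Cd3e and Trbc1 overlapped. Cd3g was at 175 to 219 CPM in allografts and at 79.0, 6.00 and 124 CPM in naive libraries. Trbc1, at 481 to 584 CPM, and Trbc2, at 383 to 481 CPM, were the largest parts of the sum in the allografts. Cd3e was at 0.278 to 1.24 CPM in allografts and at 0.792, 0.154 and 0.665 CPM in naive libraries. Cd3d was at 3.57 to 8.64 CPM in allografts and at 1.68, 2.48 and 32.5 CPM in naive libraries. Cd4 had 0, 0, 0 and 21 counts in the allografts and 0, 0 and 505 counts in the naive libraries. The coreceptor genes Cd8a, with 99, 0, 0 and 13 counts in the allografts, and Cd8b1, with 65, 0, 108 and 12, had 0 counts in each naive library. Foxp3, which marks regulatory T cells, had 0, 10, 0 and 4 counts in the allografts and 0 in each naive library. The part of T cells in the Tnfrsf4 and Tnfrsf9 values was not tested. The list of 5 natural killer cell genes summed to 35.1 to 59.1 CPM in allografts and to 0.641, 6.62 and 30.7 CPM in naive libraries. Klrb1c, Klra8 and Prf1 were higher in every allograft than in every naive library, and Ncr1 and Eomes overlapped. Ncr1 was at 28.8 CPM in naive replicate 3 and at 11.4 to 26.8 CPM in allografts. The part of natural killer cells in the result was not tested.

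The 2 receptors for TNF itself differed in level and pattern. Tnfrsf1b (ENSMUSG00000028599), TNFR2, is found mainly on immune cells and lacks a death domain. It was at 76.8, 1.165 and 46.02 CPM in the naive libraries and at 95.4, 90.4, 79.7 and 93.4 CPM in the allografts. The groups did not overlap, but the lowest allograft was only 1.04-fold above naive replicate 1. The log2 fold change was 1.10 (SE 0.95, adjusted p = 0.793), or 0.51 (SE 0.28, adjusted p = 0.342) without naive replicate 2.

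Tnfrsf1a (ENSMUSG00000030341), TNFR1, is the widely expressed receptor with a death domain. It had 0, 1367 and 0 counts in naive replicates 1 to 3 and 84, 101, 91 and 107 counts in the allografts. On the CPM scale the allografts were at 1.91 to 3.68 and naive replicate 2 at 30.05, far above every other library. The log2 fold change was -2.45 (SE 2.34, adjusted p = 0.822) with all libraries. Without naive replicate 2 the naive libraries were all at 0, and the allograft mean of Tnfrsf1a was at least 43.6-fold higher (adjusted p = 0.0433, and 0.0433 to 1 over its 15 alternatives). Leaving out that library therefore turned the direction, and it was the library with the kidney markers and an endothelial sum of 478 CPM, against 8.26 to 46.4 CPM elsewhere. Macrophages and neutrophils carry TNFR1 too, and their genes summed to 2.49, 252 and 443 CPM in naive and 185 to 287 CPM in allograft libraries. Their part in the Tnfrsf1a values was not tested.

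Tnfrsf1a and Cd40 were thus, without naive replicate 2, the 2 members past the threshold, both higher, where 3.00% of 18037 genes were called higher. With 0 counts in both remaining naive libraries, they passed the filter on low counts through the allografts alone and could only come out higher. Of the 18037 genes, 3307 were likewise at 3 counts or fewer in both remaining naive libraries and above 3 counts in an allograft. An unadjusted p under 0.05 was then reached by 4 members, against 20.2% of genes. The groups did not overlap for 6 members, all higher in allografts, against 21.0% of genes tested that were higher in this way and 7.15% that were lower. The median log2 fold change of the 10 members was 0.58 with all libraries, where that of all genes was -0.01, and 1.69 without naive replicate 2, where that of all genes was 0.23. With Tnfrsf1a and Cd40 set to their bounds, 5.45 and 4.72, it stayed at 1.69, as it had to, because both remained the highest values. No member lay between 0.51 (Tnfrsf1b) and 2.87 (Tnfrsf9), the values on either side of this median.

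**Figure D3:**
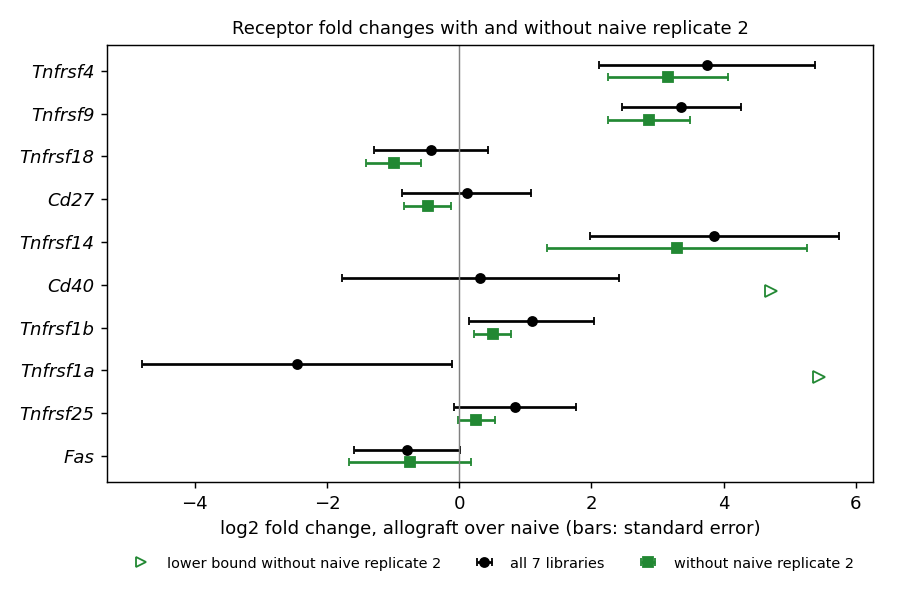
Log2 fold change, allograft over naive, of the 10 receptors (horizontal axis, bars are standard errors) with all 7 libraries (black circles) and without naive replicate 2 (green squares), with open triangles for lower bounds where the remaining naive libraries were at 0 counts. Tnfrsf4 and Tnfrsf9 lie at 3.75 and 3.36 with all libraries and at 3.16 and 2.87 without that replicate, and Tnfrsf1a moves from -2.45 to a bound above 0.

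The other receptors with a death domain were Tnfrsf25 and Fas. Tnfrsf25 (ENSMUSG00000024793), which encodes DR3, was at 141, 2.57 and 97.1 CPM in the naive and at 163, 152, 166 and 108 CPM in the allograft libraries. Allograft replicate 4 lay below naive replicate 1, and the log2 fold change was 0.85 (SE 0.92, adjusted p = 0.851), or 0.26 (SE 0.28, adjusted p = 0.675) without naive replicate 2. Fas (ENSMUSG00000024778), which encodes the death receptor CD95, was at 3.56, 26.1 and 63.7 CPM in the naive libraries. In the allografts it was at 23.2, 19.8, 18.7 and 22.8 CPM, a narrow range that lay inside the naive one. Its log2 fold change was -0.78 (SE 0.80, adjusted p = 0.839), and 0.02 without naive replicate 3.

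Levels of different receptors were compared per gene length. In the allografts Tnfrsf18 led with 205 ± 24.2 FPKM (SD, n = 4), and made up 52.7% to 59.3% of the summed FPKM of the 10 members. Tnfrsf25 followed with 56.02 ± 10.2 FPKM and Tnfrsf4 with 53.9 ± 11.4 FPKM, and these neighbours in the order did not differ beyond their spread, each being higher in 2 of 4 libraries. Next came Tnfrsf1b with 20.3 ± 1.52 FPKM, Cd27 with 10.4 ± 1.35 FPKM and Fas with 8.88 ± 0.901 FPKM. The ranges of Cd27 and Fas overlapped, although Cd27 was above Fas in 4 of 4 allografts. Tnfrsf9 stood at 5.02 ± 1.48 FPKM, and the remaining 3 members were below 1.22 FPKM in every allograft. Among these, the ranges of Tnfrsf1a and Tnfrsf14 overlapped, as did those of Tnfrsf14 and Cd40.

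The make-up of the family was similar in the 4 allografts and varied in the naive libraries. Tnfrsf4 gave 12.4% to 17.4% of the summed FPKM in the allografts and 0.415%, 0% and 1.52% in naive replicates 1 to 3. Tnfrsf18 gave 70.2% in naive replicate 1 and 84.9% in naive replicate 3. In naive replicate 2, Tnfrsf18 gave 38.7%, Fas 28.98% and Tnfrsf1a 26.5%, a composition that no other library had.

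**Figure D4:**
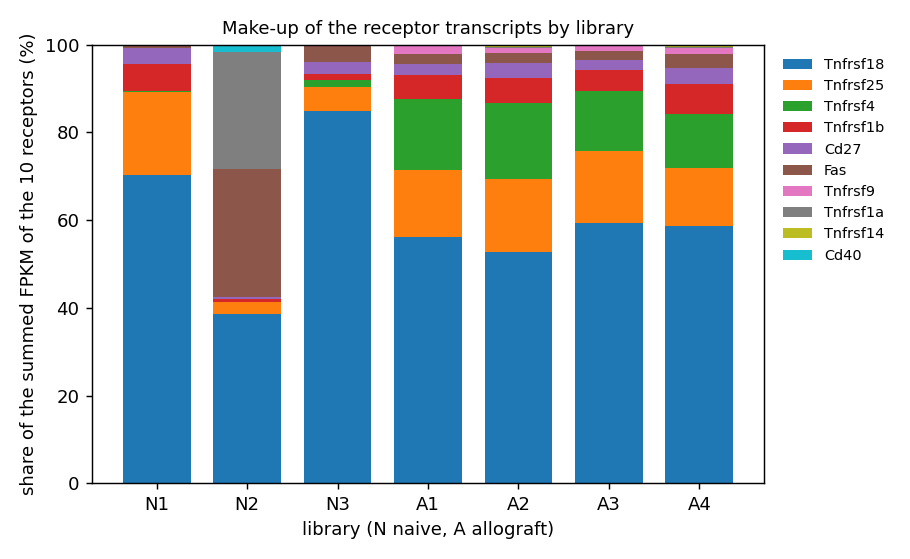
Share of the summed FPKM of the 10 receptors (vertical axis, percent, stacked bars from 0 to 100) taken by each receptor in the naive (N1 to N3) and allograft (A1 to A4) libraries. Tnfrsf4 takes 12.4% to 17.4% of each allograft bar and at most 1.52% of a naive bar.

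Ligands and partners were read beside their receptors, from a list of 13 genes of which 11 passed the filter on low counts. Of these, 1 passed an adjusted p of 0.05, higher in allografts, and the median log2 fold change was 1.73 (-0.01 over all genes). Every allograft exceeded every naive library for 5 of the 11, against 12.5% of all genes. DESeq2's Wald test called 4 higher, namely Tnfsf4, Tnfsf18, Tnfsf14 and Lta, against 4.17% of all genes. Of the 11, Tnfsf4 and Tnfsf18 had 0 counts in each naive library and passed the filter on low counts through the allografts alone. They could only come out higher, and both are among the 5 and the 4 above. Of the 17015 genes tested, 698 were likewise at 3 counts or fewer in each naive library and above 3 counts in an allograft. Tnfsf4, the ligand OX40L of Tnfrsf4, was the member of the list that passed (adjusted p = 0.0278). It had 0 counts in each naive library and 72.6, 50.2, 83.7 and 55.5 CPM in the allografts, which makes it at least 1027-fold higher. It passed the filter on low counts through the allografts alone. Transcripts of OX40 and of its ligand were thus both at 50.2 CPM or more in each of the 4 allograft pools. Over the 16 alternatives the adjusted p of Tnfsf4 ran from 4.7e-24 to 1 and was below 0.05 in 10, and it was above 0.05 when any 1 of the 4 allograft libraries was left out. OX40L is best known on dendritic cells, whose summed markers were also higher in each allograft than in every naive library, although Xcr1, Siglech and Cd209a overlapped. The part of these cells in the result was not tested.

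Tnfsf18, the ligand GITRL of Tnfrsf18, had the next smallest p of the list. It had 0 counts in each naive library and 1.23, 1.08, 3.96 and 2.85 CPM in the allografts, which makes it at least 35.8-fold higher (adjusted p = 0.144). Tnfsf18 too passed the filter on low counts through the allografts alone. The other partners fell outside the naming rule and are given because they pair with a member. Tnfsf9, the ligand of Tnfrsf9, was at 26.5, 36.2 and 143 CPM in naive and 139 to 194 CPM in allograft libraries (adjusted p = 0.565). Tnfsf14, which encodes LIGHT, the ligand of Tnfrsf14, was at 7.67, 0.418 and 3.12 CPM in naive and 23.3 to 36.5 CPM in allograft libraries, without overlap (adjusted p = 0.287). Lta, a ligand of both TNF receptors, was at 0, 0.550 and 0.551 CPM in naive and 8.38 to 18.1 CPM in allograft libraries, without overlap (adjusted p = 0.343).

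Tnf was at 0, 4.88 and 74.9 CPM in the naive libraries, on both sides of the 17.8 to 31.6 CPM in the allografts. Cd70, the ligand of Cd27, was at 8.18 to 10.4 CPM in the allografts, below the 13.6 CPM of naive replicate 3, and had 0 counts in the other naive libraries. Fasl was at 2.62 to 7.83 CPM in allografts and had 178 counts in naive replicate 2 and 0 in the other naive libraries. Fasl joined Tnfsf4 past the threshold when that library was left out, at least 90.7-fold higher (adjusted p = 0.0413, and 0.0413 to 1 over its 16 alternatives). In that fit Fasl too passed the filter on low counts through the allografts alone. Tnfsf15, the ligand TL1A of Tnfrsf25, had at most 8 counts in an allograft, and Cd40lg, the ligand of Cd40, at most 15. Thus the receptors Tnfrsf25 and Tnfrsf18 were abundant while Tnfsf15 was near the limit of detection and Tnfsf18 was at no more than 3.96 CPM.

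**Figure D5:**
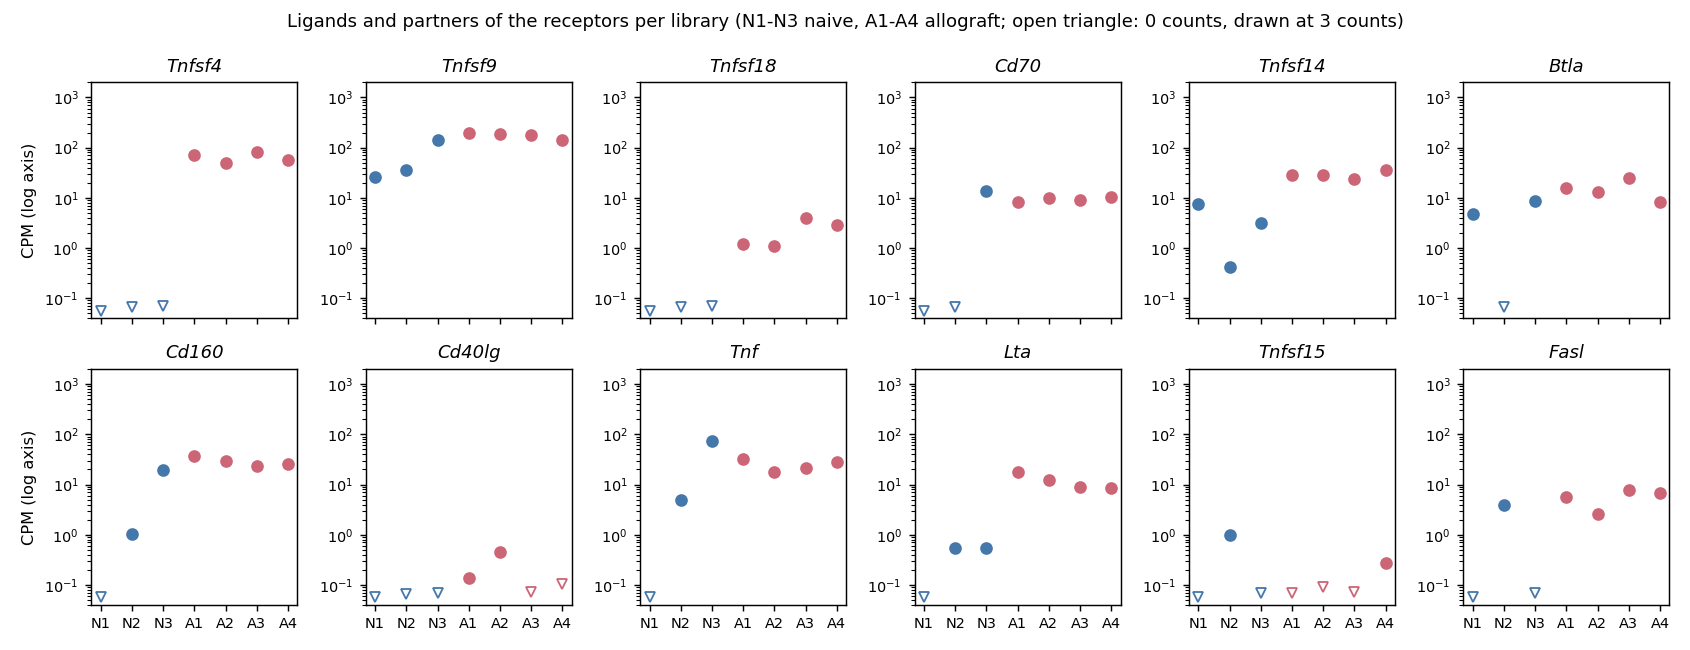
CPM (log axis) of 12 ligands and partners of the receptors in each naive (N1 to N3, blue) and allograft (A1 to A4, red) library, with open triangles for 0 counts drawn at the level of 3 counts. Tnfsf4 is at 0 counts in the 3 naive libraries and at 50.2 CPM or more in the 4 allografts, and Cd40lg is at 15 counts or fewer everywhere.

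Downstream of the receptors, none of the 18 adaptor and death signalling genes tested passed the threshold, and 0 had an unadjusted p under 0.05 (DESeq2's Wald test also called 0, of 17 with an adjusted p). Every allograft exceeded every naive library for 1 of the 18 (12.5% of all genes), Traf1, the NF-kappaB-induced adaptor of the TRAF-binding receptors. Traf1 was at 182, 12.9 and 425 CPM in naive and 686, 781, 758 and 764 CPM in allograft libraries, which gave a log2 difference of 1.80 (SE 0.87, adjusted p = 0.564). Without naive replicate 2 it was 1.24 (SE 0.37, adjusted p = 0.133). Traf2, the adaptor shared by most members, was at 17.0, 12.6 and 50.7 CPM in naive and 36.8 to 60.9 CPM in allograft libraries (adjusted p = 0.662).

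Of the 13 NF-kappaB genes, 0 passed the threshold and 2 had an unadjusted p under 0.05, both higher in allografts (DESeq2's Wald test called 1, Nfkbib, of 11 with an adjusted p). Nfkbib, an inhibitor of NF-kappaB, was at 125, 40.1 and 69.1 CPM in naive and 158 to 255 CPM in allograft libraries (log2 fold change 1.23, SE 0.37, adjusted p = 0.294). Nfkb2, the subunit of the non-canonical pathway used by several TRAF-binding receptors, was at 47.2, 17.0 and 119 CPM in naive and 168 to 225 CPM in allograft libraries (1.60, SE 0.55, adjusted p = 0.341). Both were without overlap between the groups, as was Rela, the third of 3 such genes, against 12.5% of all genes. The median log2 fold change was 0.13 for the adaptors and 0.33 for the NF-kappaB list, and -0.27 and -0.23 without naive replicate 2, so that the sign of both medians turned with that library, while the median of all genes became 0.23.

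The rest of the superfamily was covered by a list of 18 other receptors, of which 12 passed the filter and 0 the threshold (2 at an unadjusted p under 0.05, 1 in each direction). DESeq2's Wald test called 2 of 7 genes with an adjusted p, Tnfrsf13c higher and Tnfrsf22 lower, where 4.17% of all genes were called higher and 2.49% lower. Their median log2 fold change was 0.18. Tnfrsf13c, the receptor of the B cell survival factor BAFF, had 0 counts in each naive library and 2.02, 2.78, 2.91 and 2.95 CPM in the allografts, which makes it at least 41.8-fold higher (adjusted p = 0.144). Tnfrsf13c passed the filter on low counts through the allografts alone and could only come out higher. It is itself a gene of B cells, whose summed markers were also higher in each allograft than in every naive library, and their part in the result was not tested. Tnfrsf22, a decoy receptor, was at 9.52, 1.297 and 49.8 CPM in naive and 1.17 to 3.44 CPM in allograft libraries, which gave a log2 difference of -3.25 (SE 1.12, adjusted p = 0.341). Without naive replicate 2, 3 genes of this list passed the threshold, all with 0 counts in both remaining naive libraries, namely Tnfrsf13c, Tnfrsf21 and Relt, against 3.00% of all genes called higher. Among the adaptors Traf5 did so, with 214 counts in naive replicate 2 and 0 in the other naive libraries (adjusted p = 0.0433). Each of these genes then passed the filter on low counts through the allografts alone.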

How the data were processed

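Total RNA of sorted ILC2 pools was sequenced after full-length cDNA amplification, per the labels' protocols. The authors deposited whole-number counts and FPKM for 55335 genes. FastQC 0.11.5, STAR 2.5.3a, StringTie 1.3.1c, DESeq2 1.16.1 and mm10 are named, per the submitters' processing notes. The annotation and strand use are not given in the sources used here. All columns were matched to samples by library name.

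Counts were tested with edgeR 4.0.16 (R 4.3.3): TMM, filterByExpr, a quasi-likelihood fit over all 7 libraries without a covariate, and Benjamini-Hochberg adjustment over 17015 genes at 0.05. Standard errors are the fold change divided by the square root of F. The 10 members passed the filter. Alternatives were DESeq2 1.42.0, DESeq2 size factors, other filters, limma 3.58.1 on log2(FPKM + 1) and log2(FPKM + 0.1), a replicate block, leaving out each library, and scaling by ILC2 markers, the last chosen after seeing the data. The fits were tested on simulated data. Positions come from GENCODE M21 on GRCm38 (mm10).

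The members, gene lists and tests were chosen with earlier results of these data known. Named genes were the members, the 2 genes with the smallest p and any past the threshold in each of 4 pathway lists, and ILC2 markers. Each library is a pool, and p-values measure the spread between pools. Reads carried no molecular identifiers, so intervals and floors cover counting error only.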

Additional observations from a re-analysis of the deposited data

Results flagged for a closer look

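Among 40 values examined in the 4 allograft libraries, 2 had a single library far from the other 3, where chance gives about 2. Traf2, the adaptor of most TRAF-binding receptors, was at 36.8 CPM in allograft replicate 4 and at 58.8 to 60.9 CPM in the others. The summed macrophage and neutrophil markers stood at 287 CPM in allograft replicate 1 and at 185 to 199.5 CPM in the others. None of the 10 receptors had such a library.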

How the results depend on the processing

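The log2 fold changes of Tnfrsf4, Tnfrsf9, Tnfrsf14, Tnfrsf1b and Tnfrsf25 kept their direction under every alternative that gave them a value, namely 16 each and 15 for Tnfrsf14. The number of receptors past the threshold was 0, except for 1 with DESeq2's Wald test (Tnfrsf9) and 2 without naive replicate 2 (Tnfrsf1a and Cd40), so that it ran from 0 to 2 when single libraries were left out. DESeq2's Wald test gave no adjusted p for Tnfrsf1a and Cd40. The number of genes past the threshold, 6, became 1012 with DESeq2's Wald test, 4 with DESeq2 size factors, 4 with no filter on low counts, 76 and 201 with limma on log2(FPKM + 1) and log2(FPKM + 0.1), 28 with limma without a filter, 0 when scaled by the ILC2 markers and 0 to 560 without single libraries. Cd40 changed sign to -0.068 with DESeq2 size factors, -0.070 with DESeq2's Wald test and -2.42 with ILC2 scaling. Fas became 0.026, 0.15 and 0.026 and Tnfrsf18 0.70, 0.72 and 0.70 with limma at pseudocounts of 1, 0.1 and 1 without a filter. Tnfrsf1a became 1.04 with limma at 0.1. Without single libraries the log2 fold change ran from -0.47 to 0.97 for Cd27, -0.24 to 9.05 for Cd40, -1.31 to 0.017 for Fas, -0.99 to 0.90 for Tnfrsf18 and -3.01 to 9.77 for Tnfrsf1a, 3.16 to 6.48 for Tnfrsf4, 3.29 to 8.16 for Tnfrsf14, 0.51 to 1.85 for Tnfrsf1b and 0.26 to 1.48 for Tnfrsf25, the highest value of Cd40, Tnfrsf1a and Tnfrsf14 resting on naive libraries at 0 counts. The causes were not tested. The median of all genes moved from -0.01 to -0.20 with DESeq2 size factors, 0.21 and 0.52 with limma at pseudocounts of 1 and 0.1, 0.23 without naive replicate 2, 0.55 with the block and -1.37 with ILC2 scaling. With a replicate block, 0 genes passed and the log2 fold change was 0.53 for Tnfrsf18 and 6.31 for Tnfrsf1a, opposite to the values without it. Libraries of equal number did not deviate together (r of 0.02, -0.02 and 0.04 for numbers 1 to 3), and not every library correlated best with its own number. No pairing by number was thus seen. Over all pairs of a naive and an allograft library r was only -0.09 to 0.08, so the check cannot decide whether equal numbers shared a day or batch.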

Other observations

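Naive replicate 2, the library with few ILC2 and many kidney transcripts, held some receptors at far higher levels than any other library. Besides Tnfrsf1a, 2 further receptors of the superfamily were picked after their values were seen. Tnfrsf21, the death receptor DR6, was at 37.3 CPM there, at 0 in the other naive libraries and at 1.86 to 5.32 CPM in the allografts. Ltbr, the lymphotoxin beta receptor, was at 13.5 CPM there, at 0 in the other naive libraries and at 0 to 1.57 CPM in the allografts. Per 10000 counts of the 11 ILC2 markers, Tnfrsf18 had 225 counts in naive replicate 2, against 329 and 695 in naive replicates 1 and 3 and 281 to 342 in the allografts. On the same scale Fas had 228 in naive replicate 2 against 3.33 to 43.5 elsewhere, and Tnfrsf4 had 0 against 1.74 and 11.1 in the other naive libraries and 54.6 to 86.3 in the allografts.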
